A study of Mus musculus with 8 samples.

Results

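The MHC class II genes, together with Cd74 and Ciita, are described here by the 5-hydroxymethylcytosine (5hmC) peaks that lie along them in mouse germinal center B cells. The 10 genes were taken from a fixed list of names, out of 21883 protein-coding genes: H2-Aa, H2-Ab1 and H2-Eb1, H2-DMa, H2-DMb1 and H2-DMb2, H2-Oa and H2-Ob, Cd74 and Ciita. Each was read over its RefSeq span plus 2 kb on each side, called its window below. Peaks of all libraries that touched or overlapped were merged into union regions. The windows held 84 of the 356368 union regions, with a region shared by neighbouring genes counted once.

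The libraries were made from genomic DNA of splenic germinal center B cells of C57BL/6 mice, either TET2 knockout (KO) or TET2 wild type (WT). DNA fragments carrying 5hmC were immunoprecipitated and sequenced (hMeDIP-seq) in 2 KO and 2 WT libraries, numbered 2 and 3 in each genotype, and 4 input libraries have no values analysed here. The labels give no age, sex, allele or Cre driver, and do not say whether a library came from 1 animal or from separate animals, so p-values reflect variation among these libraries alone, and that may be technical. Peak lists hold no RNA measurement, so the cell type was looked at only through 5hmC. Values of a genotype are given with replicate 2 first. All 8 B cell markers had peaks, with a median of 21.2% and 19.7% of the window under peaks in KO and 21.3% and 21.7% in WT. Of 8 dendritic cell and macrophage markers, which label other class II-bearing cells, 7 had peaks, with medians of 6.78% and 5.03% in KO and 6.61% and 6.74% in WT. Lyz2, a lysozyme gene of macrophages, had none in any library. Of 8 T cell markers, 7 had peaks and Cd8a none, with medians of 3.75% and 2.999% in KO and 4.06% and 3.88% in WT. The 3 lists overlapped, however. Depending on the library, the weakest B cell marker had a share of 1.52% to 2.71%, and the strongest 34.1% to 53.3%. In every library that weakest share fell below the T cell list median and the median of all protein-coding genes. The strongest dendritic cell or macrophage marker reached 12.1% to 16.2%, and the strongest T cell marker 7.09% to 10.7%. The part of other cells in the results below was not tested.

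MHC class II molecules are heterodimers that display peptides from the endosomal pathway to CD4 T cells, and germinal center B cells depend on them to obtain T cell help. H2-Aa and H2-Ab1 encode the chains of I-A, and H2-Eb1 encodes the beta chain of I-E, which C57BL/6 mice do not assemble because their alpha chain gene is defective. Cd74 encodes the invariant chain that blocks the groove during transport, H2-DM exchanges the remaining invariant chain peptide for antigen, and H2-O inhibits H2-DM. Ciita encodes the coactivator that switches these genes on, through factors bound to the X and Y boxes of their promoters. TET enzymes oxidize 5-methylcytosine, found mainly at CpG dinucleotides, to 5hmC.

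All 10 genes carried dense 5hmC in every library. The share of the window under peaks was higher than in 93.7% of protein-coding genes for H2-Ob, the lowest of the 10, and higher than in 99.9% for Cd74 and H2-DMb2, by the mean of the 4 libraries. Across all protein-coding genes the median share was 4.24% and 3.35% for KO, and 3.89% and 4.42% for WT. H2-DMb2 had 59.2% and 39.2% of its window under peaks in KO and 56.0% and 40.8% in WT. Cd74 had 50.4% and 41.4% in KO and 52.9% and 42.8% in WT. For both genes the KO and WT values overlapped, and in these unscaled shares the libraries numbered 2 stood above those numbered 3. After scaling to the same genome-wide peak coverage, this order no longer held for Cd74. Its scaled covered bases were 6028 and 6138 in KO and 6948 and 5035 in WT.

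**Figure D1:**
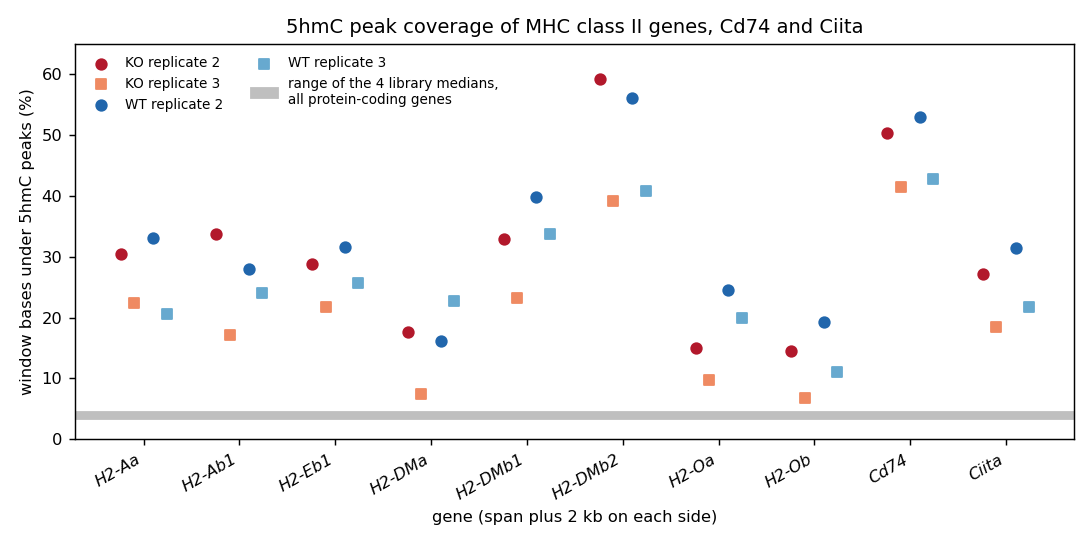
Share of each gene's window (span plus 2 kb on each side) under 5hmC peaks, in percent, with 1 point per library (KO in red, WT in blue). The grey band spans the library medians over all protein-coding genes, 3.35% to 4.42%. Every point of the 10 genes lies above the band, from 6.75% for H2-Ob in KO replicate 3 to 59.2% for H2-DMb2 in KO replicate 2.

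The other members ranked between these. Per length, H2-DMb1 came next with 32.9% and 23.2% in KO and 39.8% and 33.8% in WT. The classical genes and Ciita followed closely, at 4-library means of 26.9% for H2-Eb1, 26.7% for H2-Aa, 25.8% for H2-Ab1 and 24.7% for Ciita. These neighbours in the order do not differ beyond their spread, since H2-Aa alone ranged from 20.6% to 33.1%. H2-Oa (17.3%), H2-DMa (15.97%) and H2-Ob (12.9%) were lowest. KO replicate 3 had the lowest share of the 4 libraries in 9 of the 10 genes, H2-Aa being the exception, and its peaks also covered the least of the genome, 110.6 Mb, against 124.8 to 139.3 Mb in the other 3 libraries.

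The peaks over these genes were broad and of moderate height. KO libraries had 76 and 67 of them and WT libraries 85 and 72, for a total of 300. Median widths reached 553.5 bp and 426 bp in the KO libraries and 540.0 bp and 516 bp in the WT ones, against medians of 431 bp and 347 bp in the whole KO lists and 406 bp and 408 bp in the whole WT lists. The fold enrichment of a peak is the authors' own value for its summit over the local background in that library, and it describes peaks within a list only. At these genes its median stood at 4.22 and 3.96 for KO and at 4.61 and 4.26 for WT, each below the median of the same whole list. Of the peaks here, 30.3% and 37.3% in KO and 31.8% and 37.5% in WT exceeded that list median. The reads behind a summit, recovered from the fold and the −log10 p of the peak, numbered 33 to 140 in KO and 24 to 123 in WT. The median background beneath them was 11.6 and 10.9 reads in KO and 8.66 and 11.7 in WT. In each library that median was also the lowest background of any peak here.

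The upstream sequences of the class II genes show what lies between these peaks. RefSeq (GRCm38.p6) upstream windows of 250 bases before the annotated start were found for 7 of the 10 genes, 8 windows in all since H2-DMa has 2 starts. The starts of H2-DMa and H2-DMb2 lie inside the spans used for these genes, so their windows do too. H2-Ab1, Cd74 and Ciita are not in the table. Printed here are H2-Aa, the start farthest from any peak, H2-Eb1 and H2-DMb1, the ones that a peak reached, and H2-Oa, whose gene body had the smallest p of the KO and WT comparison below. They run 5′ to 3′ on the gene's strand, and capitals mark every CpG and the letters ATTGG, the core of the Y box.
H2-Aa (chr17:34287824-34288073, minus strand): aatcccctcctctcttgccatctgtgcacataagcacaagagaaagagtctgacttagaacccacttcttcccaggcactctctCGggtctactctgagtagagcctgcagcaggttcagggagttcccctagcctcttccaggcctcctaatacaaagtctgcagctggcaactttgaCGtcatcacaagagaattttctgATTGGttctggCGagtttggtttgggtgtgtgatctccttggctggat
H2-Eb1 (chr17:34305617-34305866, plus strand): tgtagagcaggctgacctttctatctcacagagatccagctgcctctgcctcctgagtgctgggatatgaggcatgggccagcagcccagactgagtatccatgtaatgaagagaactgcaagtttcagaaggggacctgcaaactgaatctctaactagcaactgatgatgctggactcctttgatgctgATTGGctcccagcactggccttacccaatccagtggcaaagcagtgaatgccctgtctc
H2-DMb1 (chr17:34152941-34153190, plus strand): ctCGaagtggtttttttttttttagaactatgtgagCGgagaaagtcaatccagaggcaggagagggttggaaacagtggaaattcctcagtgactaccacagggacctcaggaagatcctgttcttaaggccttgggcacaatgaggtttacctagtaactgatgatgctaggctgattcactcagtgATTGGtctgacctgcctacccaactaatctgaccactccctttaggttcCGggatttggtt
H2-Oa (chr17:34092129-34092378, plus strand): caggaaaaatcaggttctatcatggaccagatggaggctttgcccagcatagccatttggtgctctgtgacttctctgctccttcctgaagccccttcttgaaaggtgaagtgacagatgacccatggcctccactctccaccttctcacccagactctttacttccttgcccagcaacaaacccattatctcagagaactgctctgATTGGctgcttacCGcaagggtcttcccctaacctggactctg

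The upstream windows were poor in CpG and mostly free of peaks. H2-Eb1 had 0 CpG dinucleotides in its 250 bases, H2-Oa 1, H2-Ob and H2-DMb2 2 each, and H2-Aa and H2-DMb1 3 each, where the median over 32851 RefSeq windows was 6. The downstream start of H2-DMa had 0 and its upstream start 27. That upstream start lies 18 bp from the span of Brd2, a bromodomain gene. A window with 3 or fewer CpG was common, at 37.8% of all windows.

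ATTGG on the gene's strand was present in 7 of the 8 class II windows, beside 19.7% of all windows and 33.8% when the letters are read on both strands. It began 48 bases before the start in H2-Aa, 59 in H2-Eb1, 61 in H2-DMb1, 57 in H2-Ob, 43 in H2-Oa, 90 in H2-DMb2 and 198 in the downstream window of H2-DMa. The letters GCAAC, part of the X box bound by the RFX complex, lay 33 bases before ATTGG in H2-Aa and H2-Oa, 32 in H2-Eb1 and 30 in H2-Ob. GCAAC at 25 to 40 bases before ATTGG occurred in 0.362% of all windows, a spacing that was set after the class II sequences were seen. GCAAC itself, on either strand, was in 29.9% of all windows, and its first G can be the last letter of ATTGG.

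No upstream window was reached by a peak in all 4 libraries. In H2-DMb1 a peak covered 103 bases of it in KO replicate 2 and 75 in KO replicate 3, and none in either WT library, where the nearest peaks ended 33 bp and 704 bp away. In H2-Eb1 a peak covered 5 bases in WT replicate 2 and 33 in WT replicate 3, and none in KO, where the nearest peaks lay 710 bp and 3 bp away. These are edges of peaks that lie mainly outside, and both come close to the window in at least 1 library of the other genotype. The remaining 6 windows had no peak in any library. H2-Aa was farthest, with the nearest peak at 1378 bp and 1385 bp in KO and 1332 bp and 1174 bp in WT. A peak in at least 1 library touched 8.80% of all RefSeq upstream windows, and 9.10% of those with 3 or fewer CpG, so upstream windows without peaks were the common case genome-wide.

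The classical genes H2-Ab1, H2-Aa and H2-Eb1 lie side by side on chromosome 17 (34263227 to 34269418, 34282744 to 34287823 and 34305867 to 34316674), and their windows held 17 union regions, 10 of them with a peak in every library. The strongest of H2-Ab1 lay inside the gene at 34265212 to 34266770. Its top folds were 8.68 and 6.57 in KO libraries, against 8.49 and 9.70 in WT libraries. It ranked above 87.4% and 85.9% of the KO lists and 81.1% and 94.0% of the WT lists. H2-Ab1 had 3448 and 1755 covered bases in KO and 2850 and 2448 in WT, so the KO values bracketed those of WT.

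In H2-Aa the tallest peak lay past the lower end of the gene, at 34280596 to 34281380, with folds of 7.65 and 6.98 in KO and 8.90 and 9.54 in WT. Inside the gene, a pair of neighbouring regions differed in which libraries called them. The region at 34283043 to 34283844 had a peak in both WT libraries (fold 4.04 and 2.91) and in neither KO library. The region at 34284074 to 34284924 follows it and had a peak in both KO libraries (fold 2.79 and 3.29) and in neither WT library. Each of these 4 peaks was weak, with 34 and 38 summit reads in KO and 38 reads in each WT library. The whole window had 2773 and 2037 covered bases in KO and 3008 and 1875 in WT, and the groups overlapped.

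H2-Eb1 had 4268 and 3219 covered bases in KO and 4672 and 3798 in WT, again overlapping. Its widest region, 34308869 to 34310612 inside the gene, had top folds of 5.18 and 4.21 in KO and 6.00 and 3.79 in WT. The folds of the region just past the upper end of the gene, at 34317255 to 34317740, were 4.51 and 6.15 in KO and 6.00 and 5.12 in WT.

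**Figure D2:**
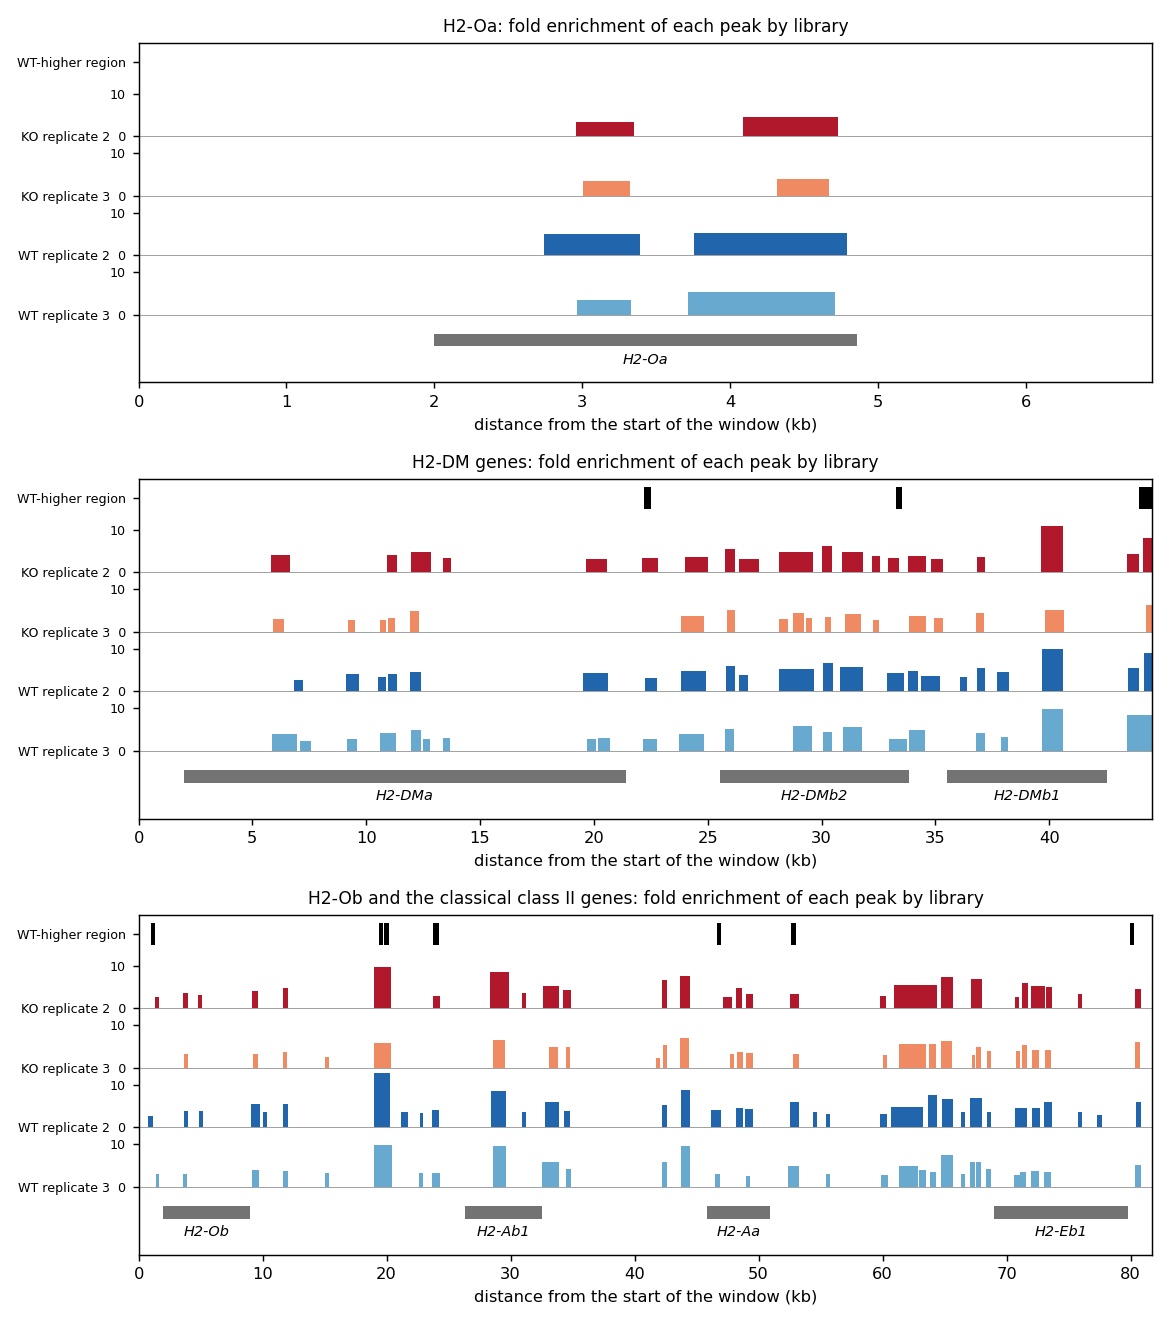
Peaks along the class II genes on chromosome 17, as distance in kb from the start of the first window of each panel. A bar spans a peak and its height is the authors' fold enrichment, with 1 track per library from KO replicate 2 at the top to WT replicate 3, black marks for regions of the authors' WT-higher table and grey bars for gene spans. Peaks and marks that lie between windows are drawn too, and bars end at the panel edge. Peaks lie closest together along H2-DMb2. The tallest H2-DM bars of KO replicate 2 (10.8) and of WT (9.84 and 9.77) lie inside H2-DMb1. In KO replicate 3 the bar there is 5.17, below a bar of 6.20 past the gene's upper end.

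The H2-DM genes, whose product loads peptide, lay in 1 block. Their windows held 21 union regions, with 12 called in every library. H2-DMb1 and H2-DMb2 are close paralogs with overlapping windows. The sources used here do not say how reads matching both copies were assigned, so their separate values are uncertain. The peak in H2-DMb1 at 34157322 to 34158323 was the tallest except in KO replicate 3. There a peak past the upper end of the gene reached 6.20-fold. The folds of the peak inside H2-DMb1 were 10.8 and 5.17 in KO and 9.84 and 9.77 in WT. Its summit reads were 135 and 90 in KO and 94 and 123 in WT. The fold of KO replicate 3 was the lowest, over a local background of 16.6 reads against its usual 10.9. The part of that background in the fold was not tested. Summit reads cannot be compared between libraries, since read totals are unknown and the usual background was 8.66 reads in WT replicate 2. H2-DMb2 had 7299 and 4834 covered bases in KO and 6908 and 5028 in WT.

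H2-DMa, the alpha chain gene, had 4123 and 1734 covered bases in KO and 3774 and 5320 in WT. After scaling each library to the same genome-wide peak coverage these were 3850.4 and 2005 in KO and 3869 and 4885 in WT. KO replicate 2 and WT replicate 2 were nearly equal, and the gap between the genotypes came from the libraries numbered 3. H2-DMa lacked a KO replicate 3 peak in 3 of its 7 regions, at 34131057 to 34131412, 34137224 to 34138409 and 34139790 to 34140511.

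The H2-O genes, which encode the inhibitor of H2-DM, were less densely covered than most of the listed genes. Their share under peaks still exceeded that of 97.3% of protein-coding genes for H2-Oa and 93.7% for H2-Ob. H2-Oa held 2 regions, both inside the gene and called in all 4 libraries. Its covered bases were 1031 and 668 in KO and 1684 and 1362 in WT. Scaled, they were 963 and 773 in KO and 1726 and 1251 in WT, with both KO libraries below both WT libraries. The wider region, 34094094 to 34095169, was covered over 639 and 356 bases in KO and 1035 and 995 bases in WT, while its top folds were 4.54 and 3.96 in KO and 5.18 and 5.28 in WT. H2-Ob had 1600 and 743 covered bases in KO and 2114 and 1211 in WT, which overlapped, and 2 of its 6 regions were called only in WT replicate 2.

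Cd74 (chromosome 18, 60803849 to 60812652) carried 9 union regions, 6 of them called in every library. One region of 2792 bp, from 60812088 to 60814879, runs from the upper end of Cd74 into the neighbouring gene Tcof1, which encodes the ribosome biogenesis factor treacle. It had the highest fold in any of the 10 windows in 2 of the 4 libraries, 11.2 in KO replicate 2 and 12.4 in WT replicate 2. Its folds were 8.76 in KO replicate 3 and 9.46 in WT replicate 3. The summits lay past the upper end of Cd74, at 60814006 and 60813990 in KO and 60813987 and 60813986 in WT. These ranked above 96.3% and 97.5% of the KO lists and 96.4% and 93.2% of the WT lists. Inside Cd74 itself, 6 regions followed one another with top folds of 2.33 to 5.03 in KO and 3.07 to 6.86 in WT. Cd74 as a whole had 6455 and 5307 covered bases in KO and 6777 and 5484 in WT, and the groups overlapped.

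Ciita (chromosome 16, 10480014 to 10531064) is the longest of the genes and held 29 union regions, 18 with a peak in every library. The tallest lay in the lower-coordinate part of the gene, though not at the same region in every library. The region at 10492010 to 10492727, tallest in KO replicate 2 and WT replicate 2, had folds of 11.0 and 7.92 in KO and 10.8 and 8.25 in WT. That at 10499468 to 10500514, tallest in KO replicate 3, had 9.24 and 8.85 in KO and 9.43 and 9.30 in WT. That at 10496379 to 10497331, tallest in WT replicate 3, had 5.66 and 6.91 in KO and 8.39 and 9.38 in WT. From 10529938 on, near the upper end and the neighbouring gene Dexi, 3 regions were called in WT alone, of which 2 only in WT replicate 2, with folds of 2.69 to 3.21. Another WT-only region, 10478002 to 10478343, lay in the flank before the gene, with folds of 4.14 and 3.70. Ciita had 14922 and 10145 covered bases in KO and 17343 and 11934 in WT, and the groups overlapped.

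**Figure D3:**
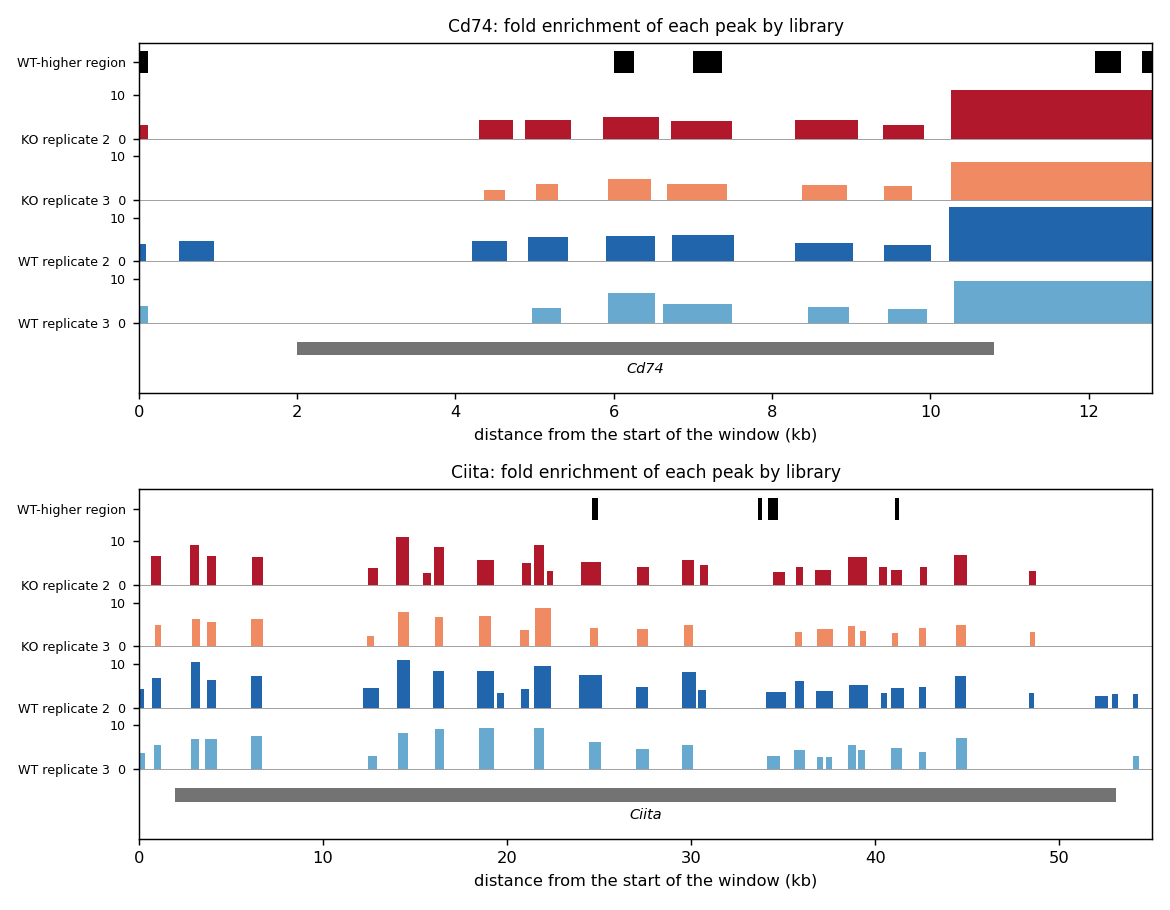
Peaks along Cd74 (top) and Ciita (bottom), drawn as distance from the start of the window in kb with the fold enrichment of each peak as bar height, 1 track per library with KO above WT. Black marks are regions of the authors' WT-higher table. The tallest Cd74 bars, 11.2 and 8.76 in KO and 12.4 and 9.46 in WT, reach past the upper end of the gene, and the 4 marks of Ciita lie in the middle of the gene.

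Whether 5hmC coverage differed between KO and WT was tested with limma over all protein-coding genes with enough peak coverage, on log2(scaled covered bases + 200), a scale that understates changes of sparsely covered genes. Of 13997 genes tested, limma called 0 lower and 0 higher in KO after Benjamini-Hochberg adjustment (0% each), with 591 at an unadjusted p under 0.05, 419 of them lower in KO (2.99%) and 172 higher (1.23%). All 10 class II, Cd74 and Ciita genes were tested and none was called, each with a limma adjusted p of 0.9999. The log2 change, KO over WT, was negative in 7 and positive in 3, with a median of -0.10, beside -0.01 over all genes tested. Without WT replicate 2 that median was 0.16, so its sign rests on that library.

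H2-Oa had the smallest p of these genes, with a log2 change of -0.65 (SE 0.22, limma adjusted p = 0.9999), and was the only one of them among the 591 genes just named. H2-DMa followed at -0.61 (SE 0.31, limma adjusted p = 0.9999). It was -0.14 when every library kept the same number of peaks, -1.04 without KO replicate 2 and -0.17 without KO replicate 3, so its size depends on each of these choices. The value for H2-DMb1 was -0.29 (SE 0.17) and for H2-Ob -0.40 (SE 0.37). H2-DMb1 was at -0.11 without WT replicate 2 and -0.48 without WT replicate 3. H2-Ob was at 0.030 without WT replicate 2, -0.057 without KO replicate 3, -0.73 without KO replicate 2, -0.82 without WT replicate 3 and -0.14 with equal numbers of peaks. Those of the other 6 genes lay between -0.13 for Ciita (SE 0.24) and 0.11 for H2-DMb2 (SE 0.22), each smaller than its SE. With peaks of at least 5-fold alone, H2-DMb2 was instead at -1.65 (SE 0.33, limma adjusted p = 0.884). Cd74 was at 0.04 (SE 0.17), H2-Aa at 0.09 (SE 0.27), H2-Ab1 at -0.0015 (SE 0.25) and H2-Eb1 at -0.08 (SE 0.17). Both KO libraries lay below both WT libraries in 3 of the 10 genes, H2-Oa, H2-DMa and H2-DMb1, and above them in none. The margin was narrow for H2-DMa, at 3850.4 scaled bases in KO replicate 2 against 3869 in WT replicate 2. It was narrow for H2-DMb1 too, at 3393 in KO replicate 2 against 3429 in WT replicate 3. Among all genes tested, KO lay below WT in 16.6% and above it in 14%.

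**Figure D4:**
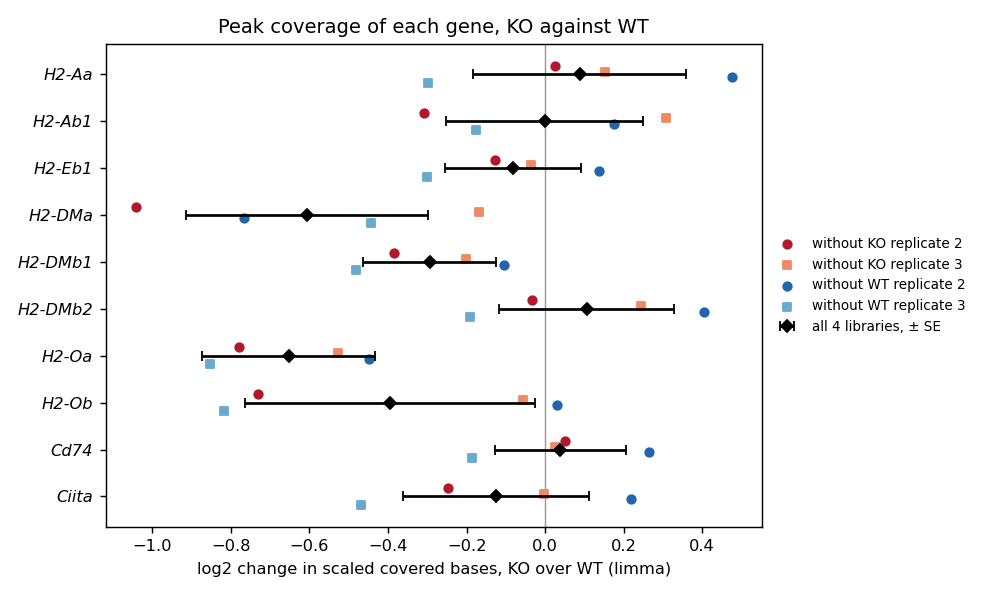
Log2 change in scaled covered bases, KO over WT, for each gene from limma (black diamonds, bars ± SE, 2 KO and 2 WT libraries), with the value after leaving out each library in color. H2-Oa, H2-DMa and H2-DMb1 stay below 0 under each omission, and the other 7 genes have values on both sides of 0.

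Replicate number went with coverage at several of these genes. In 6 of the 10, both libraries numbered 2 had more scaled covered bases than both numbered 3, as had 21.3% of all genes tested. WT replicate 2 had a peak in 79 of the 84 regions (94.0%), although it had one in only 75.5% of the 148801 union regions in or near protein-coding genes. KO replicate 2 had a peak in 70 (83.3%, against 77.0% of genic regions), KO replicate 3 in 58 (69.0%, against 75.0%) and WT replicate 3 in 63 (75.0%, against 82.4%). Regions called in 1 library numbered 9 (10.7%, against 18.2% of genic regions), and 8 of them were called in WT replicate 2 (9.52% of all 84, against 3.66% of genic regions). A further 6 regions were called in KO replicate 2 and WT replicate 2 alone (7.14%, against 1.80% of genic regions). What sets the libraries numbered 2 apart here was not tested.

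Most regions were called in both genotypes. All 4 libraries had a peak at 50 of the 84 regions (59.5%, Wilson 95% interval 48.8 to 69.4%), beside 58.0% of genic regions. Both KO and no WT library had a peak at 2 regions (2.38%, against 1.26% of genic regions), and both WT and no KO library at 4 (4.76%, against 2.24%). The 2 KO-only regions lay in H2-Aa (above) and H2-DMb2 (34149908 to 34150272). The 4 WT-only regions lay in H2-Aa, H2-DMb1 (34155420 to 34155921) and both flanks of Ciita. The WT-only number was 13 without WT replicate 3, 9 without KO replicate 2 and 6 without KO replicate 3, and the KO-only number was 7 without WT replicate 2, since fewer libraries then have to match. It was 1 for each genotype with equal numbers of peaks per library. Intervals cover counting error only.

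The authors' deposited tables of differential regions, which give no replicate values, list 24645 regions enriched in WT (WT-higher) and 50 enriched in KO (KO-higher). The windows of the 10 genes contained 0 KO-higher and 16 WT-higher regions of the authors' deposited table, in 8 of the 10 genes. Among protein-coding genes with a union region, 28.3% had a WT-higher and 0.104% a KO-higher region in the window. These genes were not matched to the 10 on number of union regions. H2-Ab1 and H2-Oa had no WT-higher region. So H2-Oa, with the largest log2 decrease in coverage, has no WT-higher region. Cd74, with no coverage change beyond its error, has the most, 2 of them inside the span of the neighbouring gene Tcof1.

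Cd74 had 5 WT-higher regions in the authors' deposited table. The one at 60801638 to 60801967, in the flank before the gene's lower end, had the highest score of the 16, 9.17, above 99.0% of all WT-higher regions. Of its 330 bases, 119 lie in the window, and the summits of the peaks beneath it lie outside. It overlapped a peak of 3.11-fold in KO replicate 2, no peak in KO replicate 3, and peaks of 4.04-fold and 3.86-fold in WT. Inside the gene, the region at 60808848 to 60809222 (score 5.75) overlapped peaks of 3.98-fold and 3.79-fold in KO and 6.11-fold and 4.34-fold in WT, and that at 60807854 to 60808104 (score 4.86) peaks of 5.03-fold and 4.80-fold in KO and 5.90-fold and 6.86-fold in WT. The last 2, at 60813923 to 60814259 (score 4.24) and 60814521 to 60814728 (score 6.07), lay in the tall region past the upper end of Cd74 and inside the span of Tcof1, so 3 remain without them. Of the 9 union regions of Cd74, 4 held a WT-higher region (44.4%, Wilson 95% interval 18.9 to 73.3%). Among the 2622 other genes with a number of union regions within 2 of that of Cd74, the median was 0 WT-higher regions. Of these genes, 7 had 5 or more (0.267%). The count of 5 for Cd74 includes the 2 inside Tcof1, and no such share was computed for the other 3. Genes were not matched on region width, with a median of 600 bp for Cd74 against 439 bp for genic regions.

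Ciita had 4 WT-higher regions in the authors' deposited table, all inside the gene within 16652 bp. The one at 10502643 to 10502940 (score 3.73) overlapped peaks of 5.18-fold and 4.21-fold in KO and 7.45-fold and 6.15-fold in WT. The one at 10519059 to 10519294 (score 4.31) overlapped peaks of 3.43-fold and 3.03-fold in KO and 4.45-fold and 4.70-fold in WT. The one at 10512165 to 10512737 (score 4.91) overlapped weak peaks in KO replicate 2 and both WT libraries, and that at 10511664 to 10511868, with the highest score of the 4 (5.44), overlapped no peak in any library. Of the 29 union regions, 3 held a WT-higher region (10.3%, Wilson 95% interval 3.58 to 26.4%). Among 249 other genes with a number of union regions within 2 of that of Ciita, 58 had 4 or more (23.3%) and the median was 2.

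The classical genes had 3 WT-higher regions in the authors' deposited table. In H2-Aa, the region at 34283578 to 34283873 (score 5.93) overlaps the peaks found in both WT and no KO library described above. The other, 34289588 to 34289859 (score 4.597), lies 1765 bp past the upper end of H2-Aa, on the far side of the upstream window printed above, over peaks of 3.51-fold and 3.24-fold in KO and 5.99-fold and 4.89-fold in WT. The region of H2-Eb1 (34316913 to 34317123, score 6.78) lies 239 bp past the upper end of the gene and overlaps no peak, the nearest ending 131 bp and 157 bp away in KO and 195 bp and 137 bp away in WT.

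The H2-DM and H2-O genes had 4 in the authors' deposited table. That at 34150969 to 34151220 (score 6.48) lies at the upper end of H2-DMb2 and in the window of H2-DMb1. It had peaks of 3.27-fold in KO replicate 2, none in KO replicate 3, and 4.35-fold and 2.65-fold in WT. Past the upper end of H2-DMb1, the region at 34161630 to 34162478 (score 3.61) lay over peaks of 8.05-fold and 6.20-fold in KO and 9.11-fold and 8.36-fold in WT. H2-DMa had 1 past its upper end (34139886 to 34140217, score 3.53), with a peak in every library but KO replicate 3. H2-Ob had 1 before its start (34237941 to 34238181, score 5.69), with a weak peak (2.69-fold) in WT replicate 2 alone. The nearest peaks of the other libraries lay 72 bp and 2376 bp away in KO and 94 bp away in WT replicate 3.

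A WT-higher region lay in 13 of the 84 union regions (15.5%, Wilson 95% interval 9.27 to 24.7%), against 7.26% of the genic regions. At a deposited score of at least 5 it was 6 regions (7.14%, interval 3.31 to 14.7%), against 3.14% of genic regions. Member regions were wider, with a median of 652.5 bp against 439 bp for genic regions, and the part of width in these shares was not tested. Of the 13, 7 were called in all 4 libraries (of 50 such regions, where 9.59% of those near all genes held one), 4 in all but KO replicate 3, 1 in both WT libraries alone (of 4, against 15.6%) and 1 in WT replicate 2 alone (of 9 called in 1 library, against 3.04%). The regions called in all but KO replicate 3 numbered 5, so 4 of these 5 held a WT-higher region, against 11.4%, and of the 14 regions with other patterns 0 did, against 1.44%. Over the 16 WT-higher regions, a peak was present at 12 and 8 in the KO libraries and at 14 and 13 in the WT libraries. Since the table names regions called higher in WT, the larger WT counts are a description only.

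Other genes of the pathway were read the same way. The 16 genes for class II assembly and turnover were transcription factors of the class II promoters, endosomal proteases, ubiquitin ligases, Ifi30 and Cd83. Of these 16, 13 had a union region, with a median share under peaks of 3.34% and 4.21% in KO and 4.39% and 5.24% in WT. The highest share in that list reached 21.4% and 13.8% in KO and 28.0% and 21.2% in WT, above those of H2-Oa and H2-Ob in every library. limma called 0 of the 11 tested, with 8 lower in KO and 3 higher (52.3% of all genes tested were lower), a median log2 change of -0.21 and 0 at an unadjusted p under 0.05. The authors' deposited table has WT-higher regions in 8 of the 13 with a union region, beside 28.3% of all such genes. Genes were not matched on their number of union regions, which was 130 for Marchf1. Marchf1, a ligase that drives turnover of surface class II, had 14 along its long span, Lgmn, an asparagine endopeptidase gene, had 2, and Cd83, Ctsb, Ctss, Nfya, Nfyc and Rfx5 had 1 each. Ctss, which encodes the protease cathepsin S that trims the invariant chain, had the highest of these scores, 7.57. Ctsb and Nfya had 0 covered bases in both KO libraries, beside 359 and 354 in WT for Ctsb and 718 and 259 in WT for Nfya. Both had too few covered bases to be tested by limma. The share of all genes with this pattern was not computed.

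Of 13 class I presentation genes, all had a union region, and peaks took up a median of 8.31% and 5.44% in KO and 12.6% and 7.04% in WT. The highest reached 31.8% and 15.4% in KO and 28.2% and 21.2% in WT. limma called 0 of the 10 tested, with 8 lower in KO and 2 higher (beside the same 52.3% lower over all genes), a median log2 change of -0.14 and 0 at an unadjusted p under 0.05. WT-higher regions of the authors' deposited table lay in 3 of the 13, a share near the 28.3% of all genes, with 2 each in B2m, the class I light chain gene, and Tapbp, the peptide loading chaperone tapasin, and 1 in H2-D1.

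The genes whose covered bases were most like those of Cd74 over the 4 libraries were Herc3, Elfn2 and Ppm1e, with mean absolute log2 differences of 0.0548, 0.0623 and 0.064. Their windows held 1, 3 and 0 WT-higher regions of the authors' deposited table, beside 5 for Cd74, or 3 outside Tcof1. For Ciita they were Prdm2, Arhgap25 and Tmem131, at 0.0378, 0.0652 and 0.075, with 9, 2 and 1 WT-higher regions beside 4.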

How the data were processed

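The submitters' processing notes name the build GRCm38.p3, the caller MACS2 2.1.0.20151222 and the aligner BWA 0.7.12-r1039, without settings. The authors deposited 1 peak list per immunoprecipitated library, each with a score, a fold enrichment (ratio over the local background), a −log10 p-value and −log10 q-value and a summit offset. They also deposited 2 tables of differential regions with a score per region, named per the file headers as enriched in KO or in WT; which caller made them, from which libraries and with what scale of score, is not stated in what was used here. Read totals are unknown. Summit reads were recovered from the deposited fold and −log10 p as the whole pileup under MACS2's Poisson test, within 0.001, for all 300 peaks.

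Spans came from RefSeq GRCm38.p6. Primary chromosomes of the 2 patch releases share coordinates. A region counted as called in a library on an overlap of 1 bp or more with its peaks. Covered bases per window were scaled to equal genome-wide totals and tested with limma 3.58.1 (trend and robust, R 4.3.3), keeping genes that averaged 500 scaled bases or more, with a pseudocount of 200 and Benjamini-Hochberg adjustment at 0.05. An exact permutation test of 2 libraries against 2 cannot go below 0.333 and was not used. Tables were read with Python 3.11.15. All 10 genes are named, list genes where they hold a differential region, and Cd74 and Ciita are set beside the 3 genes with the closest covered bases. The genes, lists and comparisons were chosen with earlier results of these data known. Same-numbered libraries are not stated to be pairs.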

Additional observations from a re-analysis of the deposited data

How the results depend on the processing

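No gene was called by limma under any of the alternatives, which were a pseudocount of 50, no filter, no scaling, peaks of at least 5-fold, equal numbers of peaks, the gene span alone, a replicate block and leaving out each library. With the replicate number as a block 0 genes were called and the smallest adjusted p was 0.160, with 925 genes at an unadjusted p under 0.05. The numbers were treated as names only, since deviations of same-numbered libraries correlated at 0.0896 over genes. The block moved no log2 change, and H2-Oa was at -0.65 with an adjusted p of 0.616. The sign of an uncalled log2 change turned in these cases, and the cause was not tested. Without scaling it was -0.00065 for H2-Aa and -0.057 for Cd74. With peaks of at least 5-fold, which could be fitted for 7 of the 10 genes, it was -0.0035 for H2-Aa, 0.34 for H2-Eb1, -1.65 for H2-DMb2 (SE 0.33, adjusted p 0.884) and -0.023 for Cd74. With the span alone it was 0.22 for H2-Ab1, and H2-Ob had too few covered bases to be tested. Over the omissions of 1 library the log2 change ranged from -0.30 to 0.48 for H2-Aa, -0.31 to 0.31 for H2-Ab1, -0.30 to 0.14 for H2-Eb1, -0.19 to 0.40 for H2-DMb2, -0.82 to 0.030 for H2-Ob, -0.19 to 0.26 for Cd74 and -0.47 to 0.22 for Ciita, and the median over the genes from -0.37 to 0.16. A lone library is assumed there to vary like the others.

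Regions called in every library numbered 13 with peaks of at least 5-fold, and 50 to 55 over the omissions. WT-only regions numbered 1 with equal numbers of peaks, 2 in the spans and 5 to 13 over the omissions. KO-only regions numbered 1 with peaks of at least 5-fold, with equal numbers of peaks and when peaks had to cover 50% of the region, and 2 to 7 over the omissions. WT-higher regions numbered 8 at a score of at least 5 and 8 in the spans, and the share of union regions that held one was 7.14% at that score. The weakest summit rests on 24 reads, and read totals are unknown.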
